A study of Homo sapiens with 12 samples.

Results

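The CXCL chemokines described here are 8 genes, CXCL1, CXCL2, CXCL3, CXCL5, CXCL6, CXCL8, CXCL14 and CXCL16, read by 12 of the 47323 probes on an Illumina bead array, and 6 of them were among the 12479 named genes detected there. The probes were taken by the gene symbol in the platform annotation, and the 8 genes were selected on their intensities in all 3 groups, so their levels and differences between groups are given as a description, without p-values. RNA came from PANC-1, a cell line derived from a human ductal tumour of the pancreas, which here stably expressed a form of E47 that tamoxifen induces. E47 is made from TCF3 and belongs to the basic helix-loop-helix proteins, which bind E-box sequences in DNA. There were 4 untreated samples, 4 given 1 µM tamoxifen and 4 given 4 µM tamoxifen, each dose for 48 h, and every group carried the inducible E47. The lower dose is taken from the sample titles, since the treatment note prints it in a volume unit. No group held cells without it, so tamoxifen and E47 activity cannot be told apart. The labels give neither a time nor a vehicle for the untreated samples, and they do not say whether the replicates were separate cultures or whether the line was 1 clone, so errors measure only the spread between these samples.

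Chemokines are small secreted proteins that draw leukocytes along a gradient by way of G protein-coupled receptors. CXCL1, CXCL2, CXCL3, CXCL5, CXCL6 and CXCL8 (interleukin 8) carry a glutamate-leucine-arginine motif before their paired cysteines, act through CXCR2 and, for CXCL6 and CXCL8, also through CXCR1, and attract neutrophils and promote vessel growth. Their genes are classic targets of NF-kB, which acts on CXCL8 together with AP-1 and C/EBP factors, and their mRNAs are unstable. CXCL14 lacks that motif and is made by many resting epithelia, and CXCL16 is made as a membrane protein that is shed by ADAM10 and ADAM17 and is bound by CXCR6.

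The motif-bearing genes lie side by side on chromosome 4, in the order CXCL8, CXCL6, CXCL1, CXCL5, CXCL3 and CXCL2, with PF4V1, PF4 and PPBP between them, while CXCL14 is on chromosome 5 and CXCL16 on chromosome 17. RefSeq windows of 300 bases (GRCh38.p14, 250 before to 50 after the annotated start) were available for 7 of the 8 genes, all but CXCL16. The short windows below are shown because they hold the feature the genes of the chromosome 4 group share, the 9 letters GGAATTTCC, printed in capitals. This is the core of an NF-kB (kB) site. It was looked for after the sequences had been read. The windows run 5′ to 3′ on the strand of the gene and lie at chr4:73740468-73740496 (CXCL8, plus strand), chr4:73836579-73836607 (CXCL6, plus), chr4:73869305-73869333 (CXCL1, plus), chr4:73998749-73998777 (CXCL5, minus), chr4:74038749-74038777 (CXCL3, minus) and chr4:74099254-74099282 (CXCL2, minus).
CXCL8: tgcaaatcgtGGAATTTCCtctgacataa
CXCL6: ctgagttcagGGAATTTCCccagcatccc
CXCL1: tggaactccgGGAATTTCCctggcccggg
CXCL5: atgagttcagGGAATTTCCccagcatccc
CXCL3: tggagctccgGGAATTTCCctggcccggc
CXCL2: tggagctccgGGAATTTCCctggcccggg

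The core began 77 to 78 bases before the start in CXCL1, CXCL2 and CXCL3, and 89 to 91 bases before it in CXCL5, CXCL6 and CXCL8. It was present on either strand in 162 of 35116 RefSeq windows, 0.461%. In 5 of the genes, CXCL8 excepted, it was preceded by another G, a string of 10 letters that 51 windows held (0.145%). The looser kB pattern, GGG and CC with any 5 letters between, matched 6 of 7 CXCL windows, but also 58.7% of all windows. In CXCL8 that match did not overlap the core, and in the other 5 genes of the group at least 1 match did. Over the whole window, aligned end to end, CXCL1 and CXCL3 were 82.5% identical, CXCL5 and CXCL6 83.1%, and CXCL8 was 45.2% to 48.2% identical to the others. CXCL14, outside the group, was 48.2% to 50% identical to the others, so CXCL8 was no closer to its group than CXCL14 was. Related genes such as CXCL1 and CXCL3 thus share more than the core, and the 6 windows are not all independent.

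The whole windows of CXCL8 and CXCL1, which had the largest differences at both doses, and of CXCL14, the member outside the chromosome 4 group that has a window, are printed for comparison, with the kB core and matches to the AP-1 pattern TGANTCA in capitals. They lie at chr4:73740319-73740618 (CXCL8, plus strand), chr4:73869143-73869442 (CXCL1, plus) and chr5:135578942-135579241 (CXCL14, minus).
CXCL8: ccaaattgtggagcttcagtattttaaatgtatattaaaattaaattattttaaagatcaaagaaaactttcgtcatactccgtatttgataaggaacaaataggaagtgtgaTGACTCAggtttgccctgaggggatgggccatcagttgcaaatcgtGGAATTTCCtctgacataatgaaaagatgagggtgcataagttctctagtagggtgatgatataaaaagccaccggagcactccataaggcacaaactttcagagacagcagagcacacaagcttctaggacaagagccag
CXCL1: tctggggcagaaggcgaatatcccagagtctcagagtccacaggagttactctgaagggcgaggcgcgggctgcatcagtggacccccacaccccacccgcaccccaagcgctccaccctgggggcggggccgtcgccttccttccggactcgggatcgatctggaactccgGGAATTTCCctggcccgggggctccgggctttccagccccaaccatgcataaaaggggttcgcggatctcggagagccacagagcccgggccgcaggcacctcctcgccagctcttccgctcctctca
CXCL14: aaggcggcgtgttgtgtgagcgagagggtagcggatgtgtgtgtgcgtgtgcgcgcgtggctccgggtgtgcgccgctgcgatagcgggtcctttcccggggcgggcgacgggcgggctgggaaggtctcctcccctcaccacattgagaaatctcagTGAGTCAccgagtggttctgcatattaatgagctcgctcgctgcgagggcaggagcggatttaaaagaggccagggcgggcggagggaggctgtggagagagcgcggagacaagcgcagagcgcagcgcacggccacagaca

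The AP-1 pattern, present in 7.71% of all windows, matched CXCL8 and CXCL14 only among the 7 windows, from position -137 in CXCL8 and from -92 in CXCL14. The general E-box pattern CANNTG was in 68.7% of all windows and in 2 of the 7, CXCL8 (from -105) and CXCL2 (from -201). The E-box forms CAGCTG and CAGGTG, found in 17.9% and 20.6% of all windows, matched none of the 7, which says only that these letters are not in these windows. The TATA box pattern TATAAA (11.5% of all windows) matched CXCL8 alone, from -31. A match is a string of letters and not a measured binding site. The plot of motif matches by distance from the start shows where each match lies.

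**Figure D1:**
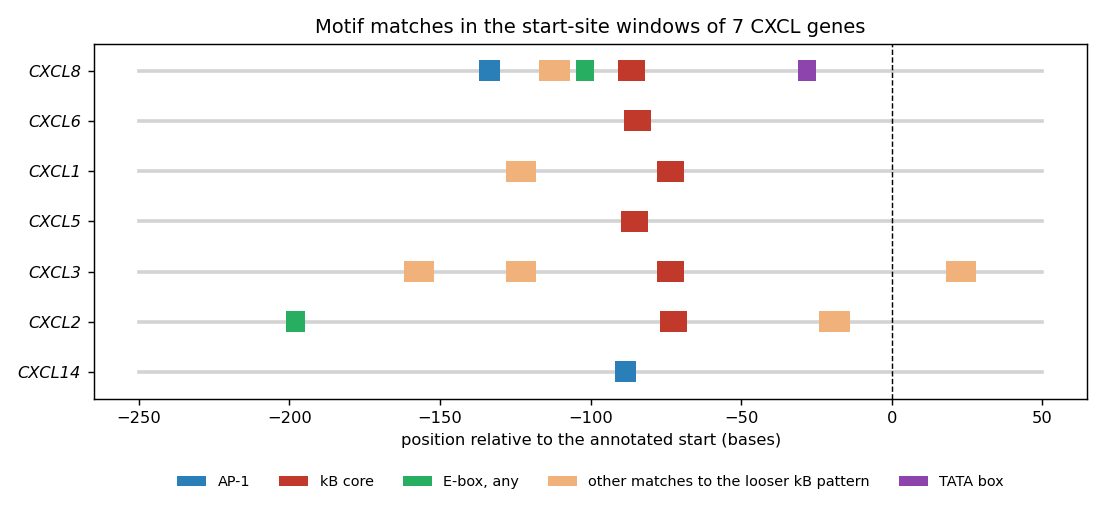
Motif matches on either strand in the RefSeq windows of 7 CXCL genes, with the position in bases relative to the annotated start on the horizontal axis and 1 gene per line, the upper 6 in chromosome 4 order. The kB core lies within 91 bases before the start in each of the 6 genes of the chromosome 4 group and is not matched in CXCL14.

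The deposited intensities are linear values that had been brought to 1 common distribution on all 12 arrays. The background threshold was an intensity of 127.4, and a probe had to pass it on 4 or more of the 12 arrays to be called detected. By this measure 6 of the 8 genes were detected, and CXCL3 and CXCL5 were not. CXCL2, CXCL6 and CXCL14 were below background on every untreated array and were detected through treated arrays alone, so their being higher with tamoxifen follows in part from the filter. The arrays themselves stood well apart by treatment, since arrays of 1 group correlated at 0.9906 or more over the 18540 genes and unnamed probes tested and pairs of an untreated and a treated array at 0.9577 or less. All 8 epithelial markers checked, KRT8, KRT18, KRT19, KRT7, EPCAM, CDH1, MUC1 and CLDN4, were above background on all 12 arrays. TCF3 itself had a lower log2 value in treated cells by 0.79 ± 0.12 at 1 µM (log2 fold change -0.79, adjusted p = 1.80e-06) and by 1.44 ± 0.12 at 4 µM (-1.44, adjusted p = 4.57e-12). ESR1, the estrogen receptor gene, was below background on all 12 arrays.

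CXCL8 was the member with the largest difference at 1 µM, and it was higher at 1 µM than at 4 µM. Its brighter probe read 345.5, 263.1, 367.8 and 360.7 on untreated arrays 1 to 4. It read 1898, 1528, 1904 and 1698 on the 1 µM arrays and 1060, 1295, 1198 and 1198 on the 4 µM arrays. The 3 groups did not overlap, with untreated lowest, 4 µM between and 1 µM highest. The log2 fold change from limma, fitted over all genes, was 2.45 ± 0.12 at 1 µM (5.45-fold, ± standard error, n = 4 arrays per group) and 1.88 ± 0.12 at 4 µM (3.68-fold). The 4 µM arrays were below the 1 µM arrays by a log2 fold change of -0.57 ± 0.12. The dimmer CXCL8 probe kept this order, at 237.8 to 275.1 untreated, 550.6 to 626.9 at 1 µM and 400.6 to 501.4 at 4 µM, again without overlap. Its log2 fold changes were smaller, 1.25 ± 0.11 at 1 µM, 0.87 ± 0.11 at 4 µM and -0.38 ± 0.11 for 4 µM against 1 µM.

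CXCL1, the neutrophil attractant also known as GRO-alpha, was higher at both doses. Its probe read 355.6, 297.6, 321.6 and 413.9 on the untreated arrays, then 1618, 649.5, 944.5 and 743.7 at 1 µM and 1340, 1055, 1346 and 1230 at 4 µM. Treated and untreated arrays did not overlap, but the doses did, because 1 µM array 1 read higher than every 4 µM array while the other 1 µM arrays read lower than all of them. The log2 fold change was 1.46 ± 0.17 at 1 µM (2.75-fold) and 1.88 ± 0.17 at 4 µM (3.69-fold), and 0.42 ± 0.17 for 4 µM against 1 µM. That array decides the last value, which was 0.69 ± 0.14 without it, while the 1 µM log2 fold change became 1.19. The standard deviation of CXCL1 intensity was 437.2 at 1 µM, against 50.4 in untreated cells and 136.1 at 4 µM.

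CXCL6, which acts on both CXCR1 and CXCR2, has a pair of detected probes, both below background on all untreated arrays, and only the brighter one was above it on all treated arrays. The brighter probe read 125, 117.8, 98.6 and 118.9 untreated, 206.8, 184.6, 223.7 and 190.0 at 1 µM, and 217.9, 276.8, 249.6 and 241.5 at 4 µM. The doses overlapped, and both lay above the untreated arrays. Taken against the background threshold, this probe was at least 1.64-fold higher at 1 µM and at least 2.03-fold higher at 4 µM. Here and below, such a bound sets each array of the dim group at the threshold and takes means of the background-corrected log2 values of the fit. It can therefore exceed the ratio of deposited intensities, which still contain the background. The fitted difference between the doses was 0.31 ± 0.11 (log2), and 0.37 ± 0.12 without 4 µM array 1, when it passed the threshold for calls (an adjusted p of 0.05). The dimmer CXCL6 probe was above background on 3 of 4 arrays at 1 µM and on 4 of 4 at 4 µM, with 90.3 on 1 µM array 2 against 139.2 to 151.7 on the other 1 µM arrays. Its differences were much smaller than those of the brighter probe. Its 1 µM arrays overlapped the untreated ones, with a log2 fold change of 0.32 ± 0.14 that was not called and a bound of 1.00-fold. At 4 µM it stood at 0.49 ± 0.14, with a call and a bound of 1.13-fold.

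CXCL2, the close relative of CXCL1 known as GRO-beta, differed from CXCL8 in its order over the doses. It read 106, 118.3, 114.8 and 100.1 untreated, 116.6, 136.2, 141.6 and 127.2 at 1 µM, and 171.1, 164.1, 201.7 and 159.6 at 4 µM. The 4 µM arrays lay above all others, while the 1 µM arrays overlapped the untreated ones and were above background on 2 of 4. CXCL2 was at least 1.40-fold higher at 4 µM, and at 1 µM at least 1.02-fold higher. The log2 fold change for 4 µM against 1 µM was 0.45 ± 0.11. At 1 µM the fitted value was 0.28 ± 0.11, and it no longer passed that threshold without untreated array 1, 3 or 4, without 1 µM array 2, 3 or 4, or without 4 µM array 1, 2 or 4. It also missed it with plain log2 values, with no detection filter, with array weights and with only the 2 groups compared, with values of 0.23 to 0.41 over all 20 alternatives. Without 4 µM array 3 the value for 4 µM against 1 µM was 0.37 and missed it as well.

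CXCL14 moved from below background to above it. It read 108.2, 91.0, 111.8 and 102.3 untreated, 199.5, 176.6, 188.8 and 189.2 at 1 µM, and 215.9, 205.7, 182.4 and 211.7 at 4 µM. The doses overlapped and differed by 0.12 ± 0.11 (log2), and no treated array lay as low as an untreated one. It was at least 1.53-fold higher at 1 µM and at least 1.66-fold higher at 4 µM.

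CXCL16, the transmembrane member, differed least at 4 µM among the members above background in untreated cells. Its brighter probe read 218, 230, 197.3 and 200.3 untreated, 371, 335.7, 343.1 and 300.3 at 1 µM, and 309.7, 332.4, 316 and 261.5 at 4 µM. Treated and untreated arrays did not overlap, and the doses did. The log2 fold change was 0.71 ± 0.11 at 1 µM (1.63-fold) and 0.55 ± 0.11 at 4 µM (1.47-fold), and -0.15 ± 0.11 for 4 µM against 1 µM. The dimmer CXCL16 probe stayed below background on all 12 arrays (85 to 114.5).

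**Figure D2:**
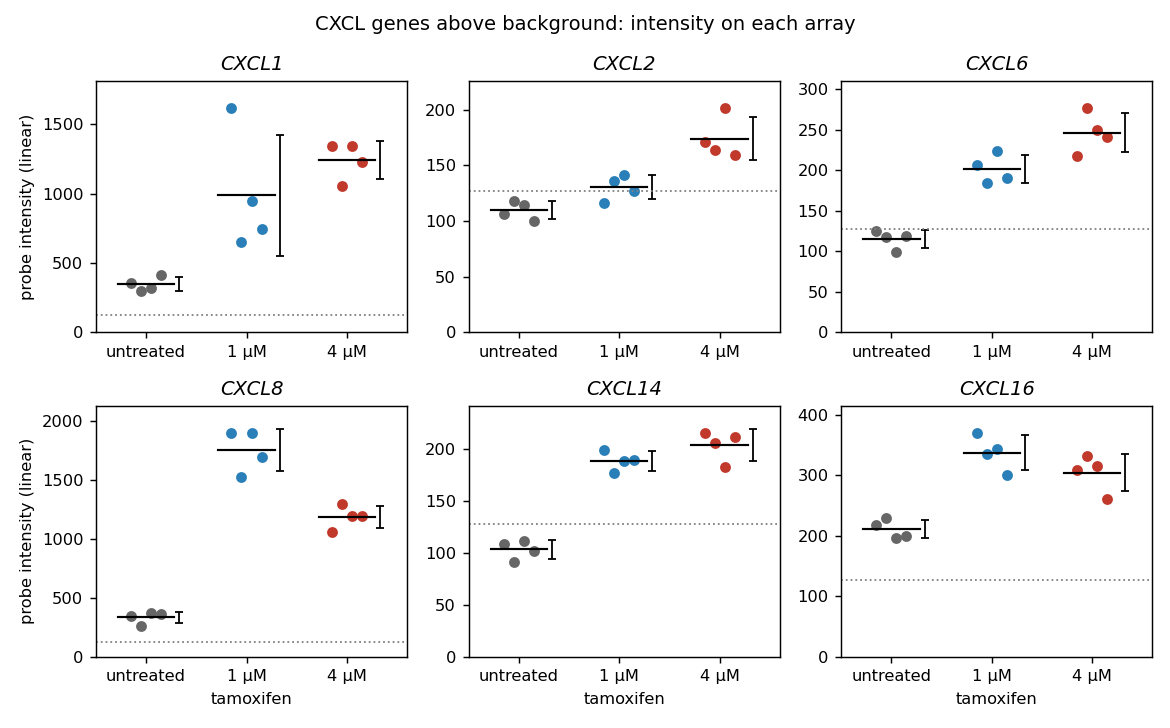
Linear probe intensity on each of the 12 arrays for the 6 detected CXCL genes, each by its brighter probe, in untreated cells and at 1 and 4 µM tamoxifen. Points are arrays, horizontal bars are group means, vertical bars are ± 1 standard deviation (n = 4) and the dotted line is the background threshold of 127.4. CXCL8 stands highest at 1 µM, CXCL2 at 4 µM, and 1 array makes the wide bar of CXCL1.

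CXCL3 and CXCL5 stayed at the level of background. The CXCL3 probe read 94.8 to 136.2 in untreated cells, 101.5 to 148.2 at 1 µM and 94.6 to 130.7 at 4 µM, with 1 array of each group above the threshold. The groups overlapped throughout. For CXCL5, 1 probe read 80.8 to 116.8, 112.1 to 132.2 and 104.2 to 131.7 in the same order, and the other 83.6 to 118.7, 117.2 to 137.5 and 115.4 to 132.4, each above the threshold on 1 array per dose. No fold change is given for them. CXCL3, with 3 arrays above background, 1 in each group, lay just outside the detection rule of 4 arrays. CXCL2, with 6, passed the rule on treated arrays alone. CXCL1, CXCL2 and CXCL3 are close paralogs, and so are CXCL5 and CXCL6. Whether a probe of one also binds the mRNA of another was not tested.

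**Figure D3:**
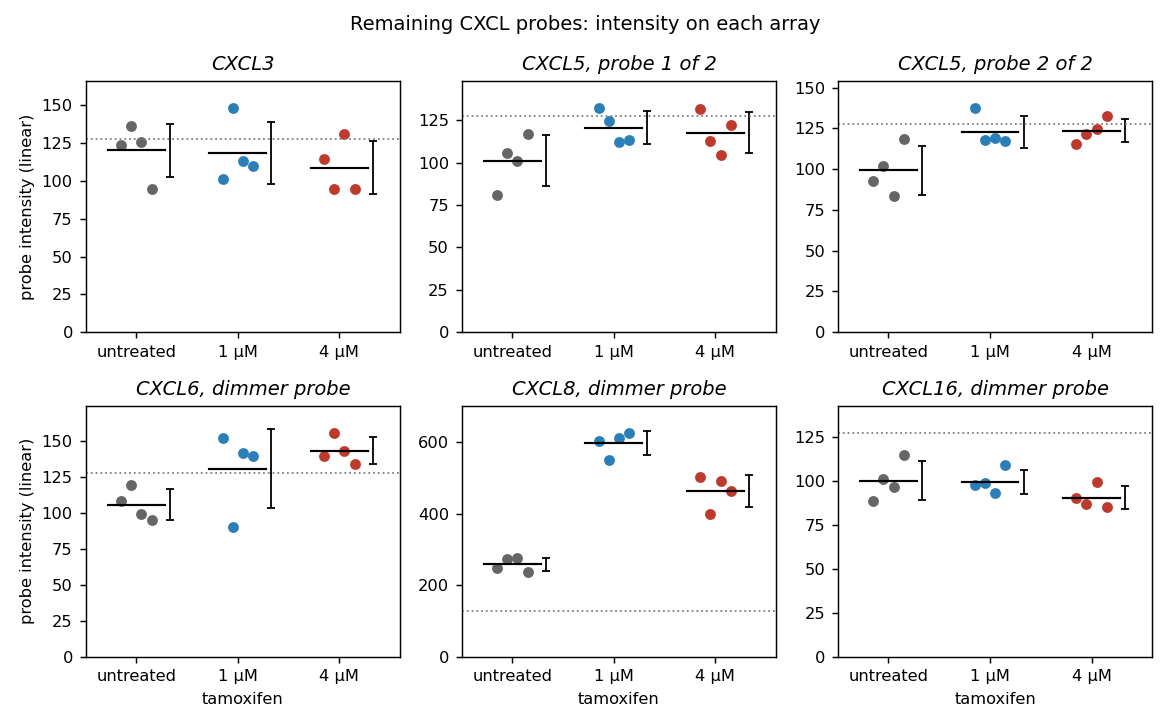
Linear intensity on each array for the 6 remaining CXCL probes, drawn as for the detected genes, with the background threshold of 127.4 as the dotted line and ± 1 standard deviation (n = 4). The dimmer CXCL8 probe repeats the order of the brighter one, with 1 µM highest, while CXCL3, CXCL5 and the dimmer CXCL16 probe lie near or below the threshold.

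A gene counted as called when its Benjamini-Hochberg adjusted p over all 18540 genes and probes was below 0.05. At 1 µM all 6 detected members were called higher, where 19.3% of everything tested was, and the 4 treated arrays lay above the 4 untreated ones for 5 of them (16.9% of everything tested). At 4 µM all 6 were called higher (background 21.2%) and all 6 had non-overlapping arrays (background 19.8%). For 4 µM against 1 µM, CXCL2 was called higher (background 4.81%) and CXCL8 lower (background 4.74%), both without overlap (background 7.02% above and 6.39% below), and 4 members were not called. Since the members were picked with these values known and 3 of them passed the filter through treated arrays alone, nothing is read from the counts. Both doses share the untreated arrays, so that their differences are not separate evidence.

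The other chemokine genes were listed by family, though with earlier results of these data known. CX3CL1, CCL2, CCL5 and CCL25 are described because they were called at 4 µM. Of 36 such genes 35 had a probe, 28 of these were not detected and 7 were tested. CX3CL1 (fractalkine) and CCL2, which attracts monocytes, fell at both doses. CX3CL1 read 1274 to 1498 untreated and 762.6 to 810.7 at 4 µM, with log2 fold changes of -0.83 ± 0.11 (adjusted p = 9.12e-08) and -0.87 ± 0.11 (adjusted p = 2.78e-08) at the lower and the higher dose. CCL2 read 3470 to 4669 untreated and 2307 to 2763 at 4 µM (-0.62 ± 0.12, adjusted p = 3.83e-05, at the lower dose and -0.63 ± 0.12, adjusted p = 2.92e-05, at the higher). For both genes all treated arrays lay below all untreated ones, which held for 17.9% of everything tested at 1 µM and 19.2% at 4 µM, and 20.8% was called lower at each dose. CCL5, a T cell attractant, fell at 4 µM (-0.60 ± 0.12, adjusted p = 9.21e-05) and stood at -0.16 ± 0.12 at 1 µM (adjusted p = 0.296). CCL25, below background on all untreated arrays, was at least 1.18-fold higher at 4 µM (adjusted p = 0.000787). CXCL12, PPBP and CCL26 were not called at either dose. The median log2 fold change of the 7 genes was 0.08 at 1 µM and 0.04 at 4 µM, against -0.03 over everything tested at both doses. Of the 3 genes that sit among the members on chromosome 4, PF4 and PF4V1 were below background on all 12 arrays and PPBP stood at 0.04 at 4 µM (adjusted p = 0.780).

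**Figure D4:**
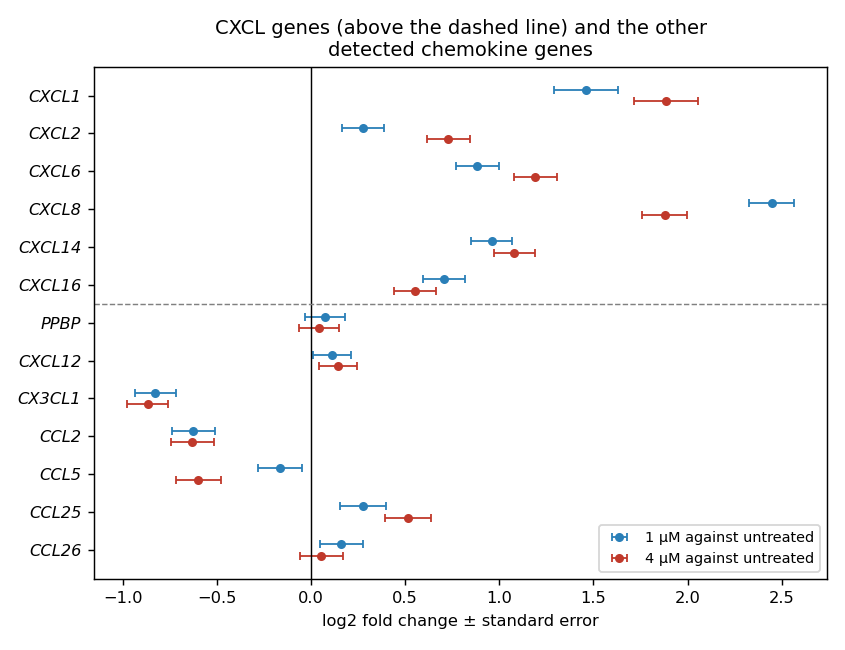
Log2 fold change against untreated cells at 1 µM (blue) and 4 µM (red) tamoxifen for the 6 detected CXCL genes and, under the dashed line, the 7 other detected chemokine genes, with standard errors (n = 4 arrays per group). The CXCL genes lie to the right of 0, and CX3CL1, CCL2 and CCL5 to the left. Values of CXCL2, CXCL6, CXCL14 and CCL25 rest on untreated arrays below background.

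Receptors for these ligands were at or near background. Of 23 chemokine receptor genes 21 had a probe and 7 were detected. CXCR2, the common receptor of the motif-bearing ligands, was above background on 2 of 12 arrays and at most 131.6. CXCR1 was below background on all untreated arrays and above it on 3 of 4 arrays at each dose, and was not called (0.19 ± 0.11 at each dose, adjusted p = 0.183 and 0.175). CXCR6, the CXCL16 receptor, and the scavenger receptors ACKR1 and ACKR3 were below background on all 12 arrays, and none of the 3 CXCR4 probes exceeded it on more than 1 array. Among the 7 detected receptors, none was called at 1 µM and CCR6 alone was called at 4 µM (higher, 0.38 ± 0.12, adjusted p = 0.0125). That call ended when untreated array 4 or 4 µM array 2 was left out (adjusted p 0.0590 to 0.0684) and with the mean of its 2 probes (adjusted p = 0.244). The brighter CCR6 probe was far above background, at 12130 to 16763 untreated and 16398 to 21366 at 4 µM, and these groups overlapped. The dimmer CCR6 probe stood at -0.09 at each dose and was not called. Whether the brighter probe reads CCR6 mRNA was not tested. The median log2 fold change of the detected receptors was -0.00 at 1 µM and -0.05 at 4 µM.

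Of 18 tested genes that signal below CXCR1 and CXCR2, 6 rose and 6 fell at 4 µM (median log2 fold change -0.09), and 5 rose and 1 fell at 1 µM (median 0.04). Over everything tested, 21.2% was called higher and 20.8% lower at 4 µM, and 19.3% higher and 20.8% lower at 1 µM, and these shares also apply to the gene lists that follow. RAC2, a small GTPase used by neutrophils, fell by 1.66 ± 0.12 at 1 µM (adjusted p = 9.74e-14) and by 2.11 ± 0.12 at 4 µM (log2 fold change -2.11, adjusted p = 1.16e-16). RGS2 and RGS16, which switch off G protein signals, were called higher at both doses, RGS16 at 1 µM with 2 of 4 arrays above background and no bound above 1. RGS2 had a mean deposited intensity of 120.9 untreated, 378.7 at 1 µM and 369.2 at 4 µM, and on the background-corrected scale it was at least 3.18-fold higher at 1 µM and at least 3.07-fold higher at 4 µM (adjusted p = 1.63e-14 and 2.13e-14), and RGS16 was at least 1.48-fold higher at 4 µM (adjusted p = 8.88e-11). GRK5, a receptor kinase, rose by 0.92 ± 0.11 at 1 µM and 0.94 ± 0.11 at 4 µM (adjusted p = 1.26e-08 and 6.21e-09).

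Among 14 tested proteases and inhibitors that process chemokines, 2 rose and 1 fell at 4 µM (median log2 fold change 0.13), and 4 rose and 2 fell at 1 µM (median 0.08). ADAM10, a sheddase of CXCL16, fell at 1 µM by its brighter probe (-0.54 ± 0.13, adjusted p = 0.000718). That probe stood at -0.21 ± 0.13 at 4 µM (adjusted p = 0.184). With every detected probe tested, the other ADAM10 probe was not called at 1 µM (-0.31, adjusted p = 0.0658) or 4 µM (-0.06, adjusted p = 0.744). ADAM17 was not called at 1 µM (0.12 ± 0.12, adjusted p = 0.478) or at 4 µM (0.23 ± 0.12, adjusted p = 0.129), but 2 of its 3 probes were each called at 1 µM when every detected probe was tested, 1 higher (0.28) and 1 lower (-0.35). The first of these was also called higher at 4 µM (0.35, adjusted p = 0.00838). The inhibitor gene TIMP2 rose by 1.00 ± 0.11 at 1 µM and 0.57 ± 0.11 at 4 µM (adjusted p = 4.77e-09 and 8.07e-05), and MMP2, a gelatinase gene, fell by 0.69 ± 0.12 at 4 µM (log2 fold change -0.69, adjusted p = 6.66e-06). The collagenase gene MMP1, below background on all untreated arrays, was above it on all 4 arrays at 1 µM, without overlap and at least 1.21-fold higher (adjusted p = 0.000306). At 4 µM it was above background on 2 of 4 arrays and was called higher with a bound of 1.04-fold (adjusted p = 0.0375). That call ended when untreated array 2 or 4, or 4 µM array 2 or 3, was left out, and with no detection filter (adjusted p 0.0688 to 0.157).

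Genes of the inputs that act on CXCL transcription went both ways. IL1A, IL1B and TNF, the cytokines best known to induce these chemokines, were below background on all 12 arrays, as was the receptor gene IL1R1. Of 15 tested genes of the IL-1, TNF and IL-17 inputs, 4 rose and 6 fell at 4 µM (median log2 fold change 0.00), and 5 rose and 4 fell at 1 µM (median -0.07). LTB, which encodes lymphotoxin beta, rose by 3.67 ± 0.12 at 1 µM and 3.28 ± 0.12 at 4 µM (adjusted p = 3.05e-23 and 4.14e-22). The TNF receptor genes went in opposite directions, TNFRSF1B up by 1.96 ± 0.14 (adjusted p = 7.27e-14) and TNFRSF1A down by 1.28 ± 0.12 (log2 fold change -1.28, adjusted p = 2.83e-11) at 4 µM. IRAK2, a kinase of IL-1 receptor signalling, fell by 1.19 ± 0.12 at 4 µM (log2 fold change -1.19, adjusted p = 2.73e-10).

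In the NF-kB pathway 22 genes were tested, of which 1 rose (TNFAIP3, 0.32) and 9 fell at 4 µM, with a median log2 fold change of -0.23, and 3 rose and 6 fell at 1 µM, with a median of -0.02. The shares over everything tested were 21.2% higher and 20.8% lower at 4 µM, and 19.3% and 20.8% at 1 µM. NFKBIA, the gene of the inhibitor IkB-alpha and itself an NF-kB target, read 5665 to 6197 untreated, 3199 to 4334 at 1 µM and 2141 to 2832 at 4 µM, so that the 3 groups did not overlap. It fell by 0.72 ± 0.11 at 1 µM (log2 fold change -0.72, adjusted p = 3.68e-06) and by 1.25 ± 0.11 at 4 µM (log2 fold change -1.25, adjusted p = 3.29e-11). BCL3, an atypical IkB protein, stood at -1.11 ± 0.11 (adjusted p = 1.50e-10), the kinase gene MAP3K14 at -1.05 ± 0.12 (adjusted p = 4.81e-09) and TNIP2, an inhibitor of NF-kB activation, at -0.93 ± 0.11 (adjusted p = 2.58e-08) at 4 µM. For 4 µM against 1 µM, 10 of the 22 were lower and none higher, and 12 were not called, where 4.74% of everything tested was lower and 4.81% higher. RELA was among them (-0.62), with 0.48 at 1 µM and -0.14 at 4 µM against untreated cells, the first of these called. TNFAIP3 and RELA are named here after their values were seen.

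The AP-1, C/EBP and EGR factors were all detected, 13 of 13. At 1 µM 9 rose and 1 fell (median log2 fold change 1.21), and at 4 µM 7 rose and 2 fell (median 0.54). Over everything tested, 19.3% rose and 20.8% fell at 1 µM, and 21.2% and 20.8% at 4 µM. CEBPA had a mean deposited intensity of 117.9 untreated, 663.0 at 1 µM and 1072 at 4 µM, and on the background-corrected scale it was at least 5.65-fold higher at 1 µM and at least 9.17-fold higher at 4 µM (adjusted p = 1.60e-19 and 1.82e-22, below background on all untreated arrays). ATF3 rose by 3.84 ± 0.11 at 1 µM and 3.33 ± 0.11 at 4 µM (adjusted p = 1.75e-24 and 6.42e-23), and CEBPB by 1.61 ± 0.12 and 1.46 ± 0.12 (adjusted p = 8.14e-13 and 5.51e-12). FOSL1, which encodes the AP-1 protein FRA1, went the other way, at -1.46 ± 0.15 at 1 µM and -2.43 ± 0.15 at 4 µM (adjusted p = 7.89e-10 and 1.70e-15), and FOS stood at -0.44 at 4 µM. For 4 µM against 1 µM, 7 of the 13 were lower (4.74% of everything tested) and CEBPA was higher (0.70 ± 0.11, adjusted p = 7.78e-05). The 7 were JUN, JUNB, JUND, FOSB, FOSL1, ATF3 and EGR1, of which JUN had log2 fold changes of 2.13 at 1 µM and 1.24 at 4 µM. FOS, JUN, JUNB, JUND, FOSB and EGR1 were named after their values were seen. Whether any of these factors acts on a CXCL gene was not tested.

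**Figure D5:**
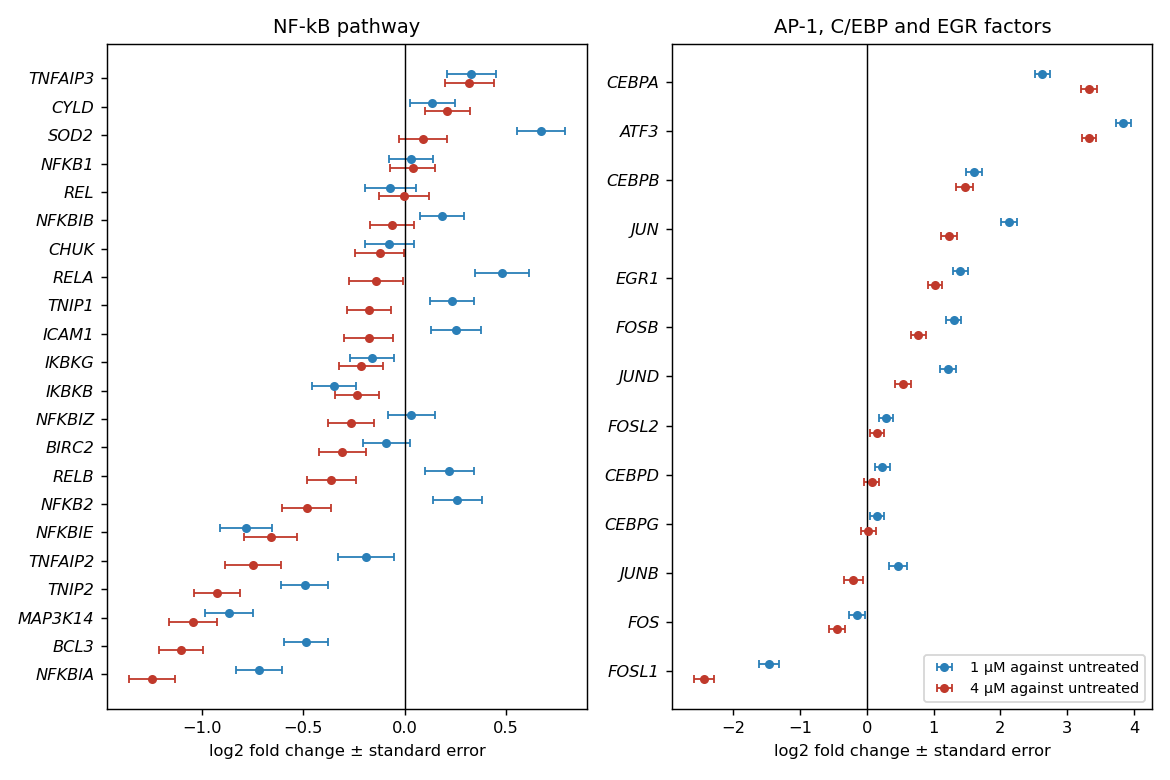
Log2 fold change against untreated cells at 1 µM (blue) and 4 µM (red), with standard errors (n = 4 arrays per group), for the 22 tested NF-kB pathway genes and the 13 AP-1, C/EBP and EGR factors, each ordered by its value at 4 µM. NFKBIA lies lowest in the first panel, and CEBPA and ATF3 highest in the second.

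Of 12 tested genes that act on unstable mRNAs, 2 rose and 2 fell at 4 µM (median log2 fold change 0.02), and 3 rose and 1 fell at 1 µM (median 0.02). ZFP36, which encodes tristetraprolin, a protein that speeds the decay of chemokine mRNAs, rose by 0.45 ± 0.12 at 1 µM (adjusted p = 0.00232). At 4 µM it stood at 0.30 ± 0.12 (adjusted p = 0.0376), a call that ended when untreated array 1, 3 or 4, or 4 µM array 1, 3 or 4, was left out, with a smaller offset and with no detection filter (adjusted p 0.0560 to 0.102). DCP1A, a decapping factor, rose by 0.65 ± 0.11 at 1 µM and 0.36 ± 0.11 at 4 µM (adjusted p = 1.12e-05 and 0.00955). HNRNPD fell at 4 µM (-0.39 ± 0.11, adjusted p = 0.00497). ZFP36L1 fell too (-0.37 ± 0.13, adjusted p = 0.0178), though not without untreated array 2 or 3 or 4 µM array 2 (adjusted p 0.0524 to 0.114).

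Other secreted factors were 4 higher and 3 lower of 12 tested at 4 µM (median log2 fold change 0.09), and 4 higher and 2 lower at 1 µM (median 0.07). GDF15, a stress cytokine, rose by 4.74 ± 0.10 at 1 µM and 4.22 ± 0.10 at 4 µM (adjusted p = 2.26e-27 and 2.41e-26). CSF1, the macrophage growth factor, rose by 1.44 ± 0.14 and 1.29 ± 0.14 (adjusted p = 9.52e-11 and 7.68e-10). VEGFC stood at -1.15 ± 0.13 (adjusted p = 2.33e-09) and MDK, midkine, at -0.94 ± 0.11 (adjusted p = 2.10e-08) at 4 µM. IL6 was above background on 1 of 12 arrays.

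Leukocyte markers, of which 11 of 12 had a probe, moved in both directions. S100A8 and S100A9, calprotectin genes that epithelia can also express, rose, with S100A9 at least 14.1-fold higher at 1 µM and at least 18.1-fold higher at 4 µM (adjusted p = 4.50e-22 and 3.35e-23) and S100A8 at 3.49 ± 0.14 and 4.68 ± 0.14 (log2, adjusted p = 3.69e-20 and 7.01e-24). S100A8 was above background on only 2 of 4 untreated arrays, so its values rest in part on background. PTPRC, CD3E, CSF3R and MPO were below background on all 12 arrays. CD68 (-1.24 ± 0.11, adjusted p = 4.62e-11) and CD14 (-1.07 ± 0.12, adjusted p = 2.01e-09) fell at 4 µM. LYZ, ELANE and FCGR3B were detected and not called at either dose (-0.07, 0.03 and -0.03 at 4 µM). Summed intensity over the 11 markers was 5512 to 5794 in untreated cells, 5221 to 6918 at 1 µM and 7414 to 8444 at 4 µM. Without S100A8 and S100A9 it was 5290 to 5574, 2616 to 3321 and 2793 to 3140. CD68 alone made up most of this smaller sum, with means of 4080 untreated, 1933 at 1 µM and 1745 at 4 µM. The smaller sum therefore mostly reflects CD68. It does not show the markers falling together, since CD14 fell as well but LYZ, ELANE and FCGR3B were not called. Fibroblast markers differed at 4 µM, where COL1A1 rose by 2.02 ± 0.12 (adjusted p = 2.69e-16) and COL3A1 by 0.90 ± 0.11 (adjusted p = 4.44e-08). DCN was not called there (0.05 ± 0.12, adjusted p = 0.776). Among the 8 epithelial markers 6 rose and CDH1 (-1.27 ± 0.11, adjusted p = 2.55e-11) fell at 4 µM (median log2 fold change 0.64), where CLDN4 stood at 1.41 ± 0.12, KRT8 at 0.87 ± 0.11 and KRT7 at 0.83 ± 0.12. The part of these genes in the CXCL differences was not tested.

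At 4 µM the log2 fold changes of CXCL1 and CXCL8 were tied within their standard errors (both 1.88). CXCL1, marginally the higher, was the member taken for a search of similar genes, and the same search was not made for CXCL8. The genes whose log2 values were most like its own over the 12 arrays were ISG15, an interferon-induced ubiquitin-like protein (Pearson r 0.972), KANK4 (0.968), the convertase gene PCSK5 (0.967), the TNF receptor family gene TNFRSF18 (0.966) and ZXDA (0.966). They were ranked among 1408 genes whose group means spanned at least 1 on the log2 scale. The arrays fall into treated and untreated clusters, and 404 of the 1408 genes had an r above 0.9. KANK4 stood at 2.37 ± 0.13 at 1 µM and 3.23 ± 0.13 at 4 µM, and ISG15 at 0.73 ± 0.12 and 1.04 ± 0.12. KANK4 was above background on only 2 of 4 untreated arrays, so its values rest in part on background. None of the 6 detected members was lower at 4 µM than in untreated cells, so no gene was ranked against a fall.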

How the data were processed

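Total RNA of 12 PANC-1 samples was hybridized to Illumina bead arrays. The authors deposited each probe's intensity on a linear scale, made with GenomeStudio per the submitters' processing notes. Its version is not given in the sources used here. Tested on the file, the sorted columns agree within a ratio of 1.02, as quantile normalization between arrays would give, and this hides any shift common to all genes. A second table's 24 columns match no sample label and were not used.

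Background was the mode of the intensities (101.6) plus 1.645 times a standard deviation from the values below it (15.7). Detected probes numbered 22906. The brightest detected probe stood for a gene, giving 12479 named genes and 6061 probes with no gene. Intensities were corrected by normexp fitted to the signals themselves (offset 50), taken to log2 and fitted with limma 3.58.1 in R 4.3.3. The fit held the 3 groups together (9 residual degrees of freedom), with two-sided p-values adjusted by Benjamini-Hochberg. The offset makes fold changes of dim genes smaller. The number of arrays, 4 a group, limits the precision. The fit was also run on simulated data, where far fewer features changed than were called here, and no result here rests on that run. The members, the 12 gene lists and the tests were chosen with earlier results of these data known, and the lists are described by counts and medians. Named besides the members were 10 genes fixed by name and the 5 genes most like CXCL1. Each list added the called genes that changed most at 4 µM (at most 4 a list). Only for a list with none called at 4 µM would calls at 1 µM have been taken. Some further genes of the lists are given as well. Alternatives changed the background correction, the offset, the filter, the groups in the fit, a replicate block and array weights, or left out 1 array. Others tested every detected probe or averaged the detected probes of a gene. No probe sequence or genome build was given for the array.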

Additional observations from a re-analysis of the deposited data

Results flagged for a closer look

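A sample far from the other 3 of its group by Dixon's test at the 95% level was found in 11 of 183 groups tested over 61 probes (6.01%), where chance gives about 1 in 20. Among the CXCL probes, the dimmer CXCL6 probe read 90.3 on 1 µM array 2, against 139.2 to 151.7 on the other 1 µM arrays, and 1 CXCL5 probe read 137.5 on 1 µM array 1, against 117.2 to 118.8. CCL2 read 2123 on 1 µM array 1 (others 2569 to 2621) and 4669 on untreated array 3 (others 3470 to 3604). CX3CL1 read 1274 on untreated array 4 (others 1466 to 1498), TNFRSF1B 436.4 on untreated array 4 (others 656.7 to 702.4) and ISG15 2383 on untreated array 4 (others 1992 to 2037). KRT7 read 177 on untreated array 3 (others 223.6 to 230.1) and ZXDA 273.2 on untreated array 1 (others 237.4 to 239.7). CEBPB read 17171 on 4 µM array 2 (others 14920 to 15192) and CDH1 473.2 on 4 µM array 3 (others 552.4 to 568.4).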

How the results depend on the processing

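CXCL1, CXCL6, CXCL8, CXCL14 and CXCL16 kept their direction and call against untreated cells at both doses under each alternative that gave a value, as CXCL2 did at 4 µM. No alternative let the dimmer CXCL6 probe alone stand for the gene, and that probe was not called at 1 µM (0.32). CXCL2 at 1 µM (0.28, log2) lost its call with plain log2 (0.25), no detection filter (0.28, more features tested), only the 2 groups compared (0.28) and array weights (0.27), and over the fits without 1 array it ranged from 0.23 to 0.34. For 4 µM against 1 µM, fits without 1 array gave CXCL1 0.25 to 0.69, CXCL6 0.25 to 0.37 and CXCL2 0.37 to 0.50, with a call gained for CXCL1 without 1 µM array 1 and for CXCL6 without 4 µM array 1, and lost for CXCL2 without 4 µM array 3. Calls for 4 µM against 1 µM ranged from 568 to 965 higher (892 with all arrays) and from 566 to 953 lower (879 with all arrays), the higher calls falling by over 1.5 times without 4 µM array 2 and the lower calls without any of 4 µM arrays 2, 3 and 4 and 1 µM array 4. With a replicate block, fold changes were those of the fit without it and no member's call changed. The numbers showed no pairing of arrays: residual correlations of the 12 same-numbered pairs were -0.07 to 0.16 and 4 of 12 arrays correlated best with their own number. Requiring signal above background on all 12 arrays removed CXCL2, CXCL6 and CXCL14, which gave no value there. For the other named genes, 32 of the recomputed values lost a call, 12 gained one and none reversed. The causes were not tested. Dim probes limit CXCL2, CXCL6 and CXCL14 to bounds and leave CXCL3 and CXCL5 unmeasured.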
